A study of Mus musculus with 4 samples.

Results

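Genes that break down extracellular nucleotides, clear adenosine or sense ATP and adenosine were examined with and without JQ1 in mouse CD4 T cells that were driven towards the TH17 state. The members were a list of 10 genes (Entpd1, Nt5e, Adora2a, Adora2b, Ada, Dpp4, Slc29a1, P2rx7, P2rx4 and Cd38). For each, the array row annotated to exactly 1 gene symbol was taken, and where a gene had several such rows, the one with the highest mean over the arrays. Of the 10, 7 had such a row, each 1 row, among 14860 named genes. Adora2a and Adora2b, which encode the adenosine receptors of the A2 type, and Cd38, which encodes an enzyme that cleaves NAD, had none and were not analysed here. The receptors of the A2 type are therefore outside the measurements.

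Naive CD4 T cells from spleens of C57BL/6 mice, with a stated purity over 90%, were stimulated with beads carrying antibodies against CD3 and CD28 in the presence of TGF-β1 at 5 ng/ml, IL-6 and IL-23 at 20 ng/ml each, and blocking antibodies to IFN-γ and to IL-4 at 10 μg/ml each. All 4 samples shared this treatment, and their RNA was labelled as taken at 48 hours, although the treatment text also speaks of a stimulation of 4 days. The JQ1 group (2 samples) received 150 nM JQ1, an inhibitor that fills the acetyl-lysine binding pocket of BET bromodomain proteins and releases them from chromatin, and the control group (2 samples) received the solvent DMSO. No source used here states if the 2 samples of a group are separate mice or cultures, and p-values therefore reflect no more than how far these samples lie apart, which can be a technical matter.

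T cells and dying cells release ATP, which acts on P2X channels and P2Y receptors as a signal of activation or damage. CD39, the product of Entpd1, cuts ATP and ADP to AMP, and CD73, the product of Nt5e, cuts AMP to adenosine, which raises cyclic AMP in T cells through receptors of the A2 type and restrains them. Adenosine deaminase (Ada) turns adenosine into inosine, and the equilibrative transporter ENT1 (Slc29a1) carries adenosine across the membrane. CD39 and CD73 are best known on regulatory T cells and are also carried by TH17 cells grown with TGF-β1 and IL-6.

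Signal was read on Affymetrix exon arrays and is given as the deposited log2 value, on which a difference of 1 is a 2-fold difference. A change is the JQ1 mean minus the DMSO mean. The files hold no detection calls, and a background reference was therefore set at 5.80, the 95th percentile of the mean signal of 799 olfactory and vomeronasal receptor genes. Levels of different genes come from different probes and are not set against each other. Over the named genes the correlation between arrays was 0.976 to 0.982, and the median change of all genes was -0.09. Precision is limited by the number of arrays. With 2 arrays a group, the lowest two-sided p that an exact permutation test can give is 0.333.

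The defining genes of CD4 T cells were bright in both groups. Cd3e lay between 10.95 and 11.38 and Cd4 between 8.64 and 8.98 on the 4 arrays. Of the 7 measured genes of that list 1, Thy1, was lower on both JQ1 arrays (change -0.71), beside 31.4% of all genes. Lck of this list had no row. The 6 measured genes of the TH17 list had list means of 8.17 and 8.26 on the DMSO arrays. Il23r lay under the background reference there, at 5.52 and 5.72. On the JQ1 arrays the list means were 6.31 and 6.35. For all 6 genes both JQ1 arrays lay below both DMSO arrays, as they did for 31.4% of all genes.

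Promoter windows of 4 members are shown. Of these genes 3 (Entpd1, P2rx7 and Ada) had lower signal on both JQ1 arrays, and Nt5e, the enzyme that acts just after Entpd1, did not. Dpp4 was also lower on both JQ1 arrays, and its window is not shown. Each window is the 250 bases before a RefSeq start on GRCm38.p6, written 5′ to 3′ along the gene. Capitals mark matches on either strand to any of 6 short motifs, which are TGANTCA (AP-1), TTCNNNGAA (STAT), GCGTG (the aryl hydrocarbon receptor core), GGGCGG (GC box), CCAAT and TATAAA. Matches of different motifs do not overlap in these windows.
Entpd1, upstream start, chr19:40612116-40612365, plus strand: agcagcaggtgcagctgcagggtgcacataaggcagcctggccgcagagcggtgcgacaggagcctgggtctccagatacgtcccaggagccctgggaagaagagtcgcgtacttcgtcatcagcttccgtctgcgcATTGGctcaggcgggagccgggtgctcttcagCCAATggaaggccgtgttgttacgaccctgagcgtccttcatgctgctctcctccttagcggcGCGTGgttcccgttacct
Entpd1, downstream start, chr19:40659520-40659769, plus strand: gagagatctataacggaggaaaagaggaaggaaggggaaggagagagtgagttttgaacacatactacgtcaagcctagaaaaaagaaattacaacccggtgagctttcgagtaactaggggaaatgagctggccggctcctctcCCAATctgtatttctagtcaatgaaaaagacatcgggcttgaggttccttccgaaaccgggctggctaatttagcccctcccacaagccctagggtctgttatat
P2rx7, upstream start, chr5:122643677-122643926, plus strand: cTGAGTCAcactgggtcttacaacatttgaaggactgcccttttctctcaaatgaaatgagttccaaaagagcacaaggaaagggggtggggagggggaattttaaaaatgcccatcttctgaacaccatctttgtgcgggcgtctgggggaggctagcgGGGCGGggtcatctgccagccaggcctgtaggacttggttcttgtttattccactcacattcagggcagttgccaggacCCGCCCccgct
Ada, chr2:163750240-163750489, minus strand: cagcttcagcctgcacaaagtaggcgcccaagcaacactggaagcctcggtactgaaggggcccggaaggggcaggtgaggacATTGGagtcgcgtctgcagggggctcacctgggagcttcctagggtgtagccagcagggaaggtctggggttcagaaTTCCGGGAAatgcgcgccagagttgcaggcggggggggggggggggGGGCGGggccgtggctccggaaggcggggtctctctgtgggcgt
Nt5e, chr9:88327359-88327608, plus strand: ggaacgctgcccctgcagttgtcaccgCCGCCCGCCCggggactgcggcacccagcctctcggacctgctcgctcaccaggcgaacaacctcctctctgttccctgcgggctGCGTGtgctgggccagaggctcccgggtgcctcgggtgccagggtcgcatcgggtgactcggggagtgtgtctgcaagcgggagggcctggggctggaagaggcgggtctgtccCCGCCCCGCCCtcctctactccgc
Entpd1 has 2 RefSeq starts in the table. The upstream window held 2 CCAAT matches and 1 GCGTG match, and the downstream window, with a lower GC content (47.2% against 62.4%), held 1 CCAAT match. The P2rx7 window held 1 TGANTCA and 2 GGGCGG matches. The Ada window held 1 match each of TTCNNNGAA, GGGCGG and CCAAT, and the Nt5e window, the richest in G and C at 72%, held 4 GGGCGG matches and 1 GCGTG match. Among the 32851 promoter windows of this length in the table, 33.8% held CCAAT, 32.7% GGGCGG, 28.2% GCGTG, 12.4% TATAAA, 7.02% TTCNNNGAA and 6.75% TGANTCA. Matches at the second RefSeq start of P2rx7 and in the windows of the other members are not listed, and a match describes letters only.

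The question asked of the arrays was whether the signal of these genes differs between JQ1 and DMSO. Of the 7 measured members, Entpd1, P2rx7, Dpp4 and Ada had both JQ1 arrays below both DMSO arrays, P2rx4 had both above, and Nt5e and Slc29a1 overlapped between the groups. None passed limma's test with p-values adjusted by Benjamini and Hochberg's method over the 14860 genes (adjusted p from 0.305 to 0.955), a threshold that 1 gene passed as lower (0.00673%) and 0 as higher (0%). At an unadjusted limma p under 0.05, 4 members were lower and 0 higher, where 8.26% of all genes were lower and 1.72% higher. Both JQ1 arrays lay below both DMSO arrays for 31.4% of all genes and above them for 10.0%. The members were listed with earlier results of these data known, so these shares describe them and are not a test. The median change of the 7 members was -0.43, beside -0.09 for all genes.

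**Figure D1:**
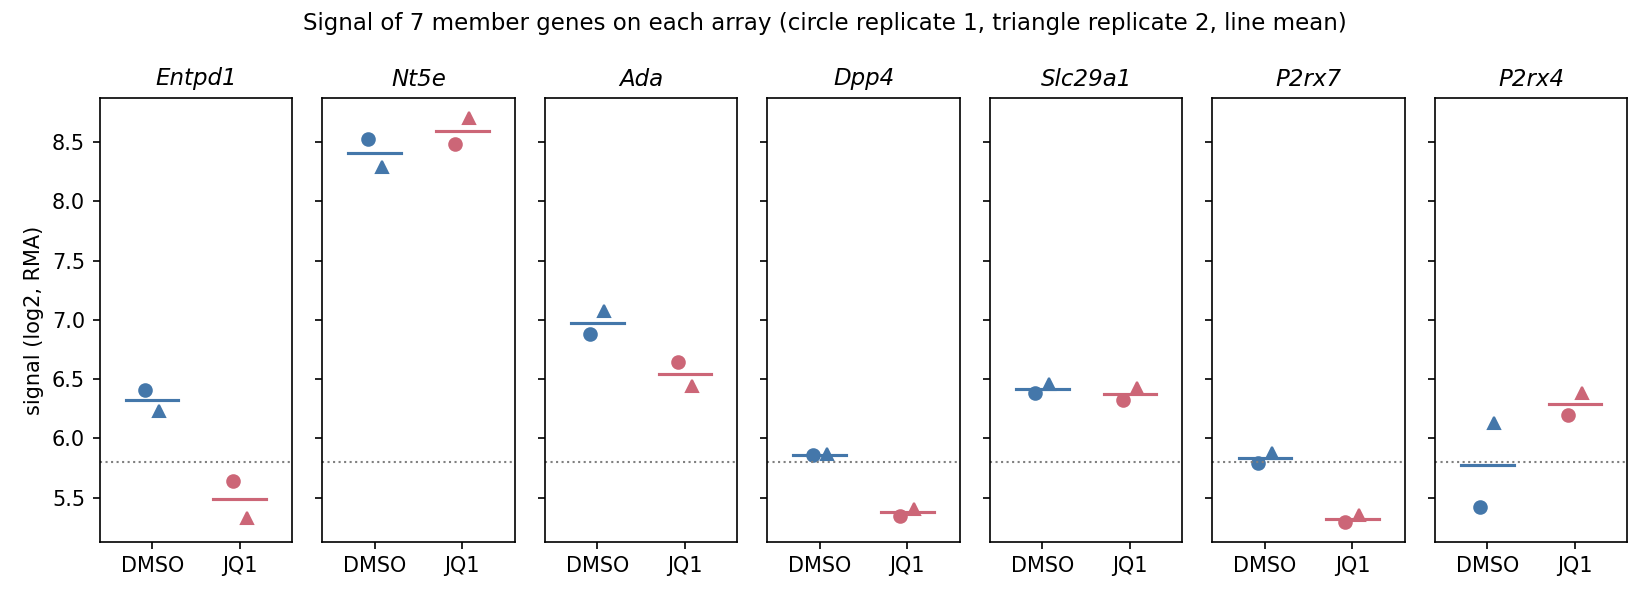
Deposited log2 signal (vertical axis) of the 7 measured genes on each array, in DMSO (blue) and JQ1 (red). Circles are replicate 1, triangles replicate 2, short lines the mean of a group, and the dotted line the background reference of 5.80. Entpd1, Ada, Dpp4 and P2rx7 have both red symbols below both blue ones, and P2rx4 has both above, with its DMSO arrays far apart at 5.43 and 6.13.

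Entpd1 (Entrez gene 12495), the enzyme of the first step from ATP to AMP, showed the largest change of the 7 members. Its log2 signal was 6.41 and 6.23 on the DMSO arrays and 5.64 and 5.33 on the JQ1 arrays. The groups did not overlap, and the gap of 0.84 between the means was wider than the SD within DMSO (0.13) or JQ1 (0.22). The change of -0.84 (SE 0.18, 95% interval -1.28 to -0.39) is a 1.78-fold lower signal, with a limma unadjusted p of 0.00428 and an adjusted p of 0.305. It was the 267th most negative change of the 14860 genes. With JQ1 the mean of 5.49 lay under the background reference, where signal cannot be told apart from background.

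Nt5e (Entrez gene 23959), the enzyme of the next step from AMP to adenosine, had a signal of 8.53 and 8.29 with DMSO and 8.48 and 8.70 with JQ1. The groups overlapped, and all 4 arrays were well above the background reference. Its change was 0.18 (SE 0.17, limma adjusted p = 0.772), with an interval from -0.24 to 0.61. The sign was positive under every scaling tried, with values of 0.30 after centring on the median, 0.31 after a further quantile normalization and 0.35 after cyclic loess. Cyclic loess was also the setting in which Nt5e came under an unadjusted limma p of 0.05 (limma adjusted p = 0.550).

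Set against each other within an array, which removes any scaling common to the array, Entpd1 minus Nt5e was -2.12 and -2.06 on the DMSO arrays and -2.84 and -3.37 on the JQ1 arrays. The groups did not overlap, and the means differed by -1.02 (exact permutation p = 0.333, two-sided, the smallest that this design allows). The pair was chosen by role with its values known, and Entpd1 lay under the background reference with JQ1, so these values are a description and not an exact size. The absolute height of such a difference depends on the probes and has no meaning of its own.

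Ada (Entrez gene 11486), the deaminase that removes adenosine, had a signal of 6.88 and 7.07 with DMSO and 6.65 and 6.44 with JQ1. Both JQ1 arrays were lower, and both group means were above the background reference. The change was -0.43 (SE 0.16, 95% interval -0.84 to -0.02), a 1.35-fold lower signal, with a limma unadjusted p of 0.0434 and an adjusted p of 0.484. After centring it was -0.31 and after cyclic loess -0.33, at unadjusted limma p-values of 0.122 and 0.104. Deficiency of this enzyme is known to cause severe combined immunodeficiency.

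Dpp4 (Entrez gene 13482) encodes CD26, a peptidase of the T cell surface that in humans binds adenosine deaminase. Its signal was 5.86 and 5.87 on the DMSO arrays and 5.35 and 5.41 on the JQ1 arrays. Replicates lay close together, with an SD of 0.0094 and 0.040, and the groups did not overlap. The change was -0.48 (SE 0.14, 95% interval -0.84 to -0.13), a 1.4-fold lower signal with a limma adjusted p of 0.390 (unadjusted 0.0158). Its DMSO mean lay just above the background reference and its JQ1 mean below it.

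Slc29a1 (Entrez gene 63959), the transporter ENT1, had the smallest change of the 7. Its signal was 6.38 and 6.46 with DMSO and 6.32 and 6.43 with JQ1, and the groups overlapped. The change was -0.04 (SE 0.14, limma adjusted p = 0.955), with an interval from -0.41 to 0.32, and its sign turned after centring (0.07) and cyclic loess (0.05). Ada minus Slc29a1 within an array was 0.50 and 0.62 with DMSO and 0.33 and 0.02 with JQ1, which are values without overlap (change -0.39, exact permutation p = 0.333, two-sided).

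The 2 ATP-gated channels of the list lay on opposite sides. P2rx7 (Entrez gene 18439), a channel opened by high ATP that can form large pores and kill T cells, had a signal of 5.79 and 5.87 with DMSO and 5.30 and 5.35 with JQ1. The groups did not overlap, and the change was -0.51 (SE 0.14, 95% interval -0.87 to -0.15), a 1.42-fold lower signal with a limma adjusted p of 0.390 (unadjusted 0.0138). As with Dpp4, the DMSO mean of 5.83 was just above the background reference and the JQ1 mean of 5.32 below it.

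P2rx4 (Entrez gene 18438), a channel that answers to lower ATP and admits calcium, had a signal of 5.43 and 6.13 with DMSO and 6.20 and 6.38 with JQ1. Both JQ1 arrays were higher, the lower of them only slightly above the higher DMSO array, and the SD within DMSO was 0.50. The change of 0.51 (SE 0.26, 95% interval -0.15 to 1.17, limma adjusted p = 0.579) was about as large as that SD. The DMSO mean of 5.78 lay just under the background reference. Without DMSO replicate 1, the low array, the change was 0.16, and without DMSO replicate 2 it was 0.86 (limma adjusted p = 0.391), so its size rests on which control array is kept.

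P2rx7 and P2rx4 are neighbours on mouse chromosome 5, with 0 protein-coding genes starting between them in the RefSeq table, and the annotated span of P2rx4 overlaps that of Camkk2. P2rx7 minus P2rx4 within an array was 0.37 and -0.26 on the DMSO arrays and -0.90 and -1.03 on the JQ1 arrays. The groups did not overlap and the difference changed by -1.02 (exact permutation p = 0.333, two-sided), with most of the spread on the DMSO side (SD 0.44 against 0.094). P2rx7 with JQ1 and P2rx4 with DMSO had means under the background reference, so the size of this difference is not exact either. Adjusted over the 3 within-array pairs compared, the p-values remain at 0.333.

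**Figure D2:**
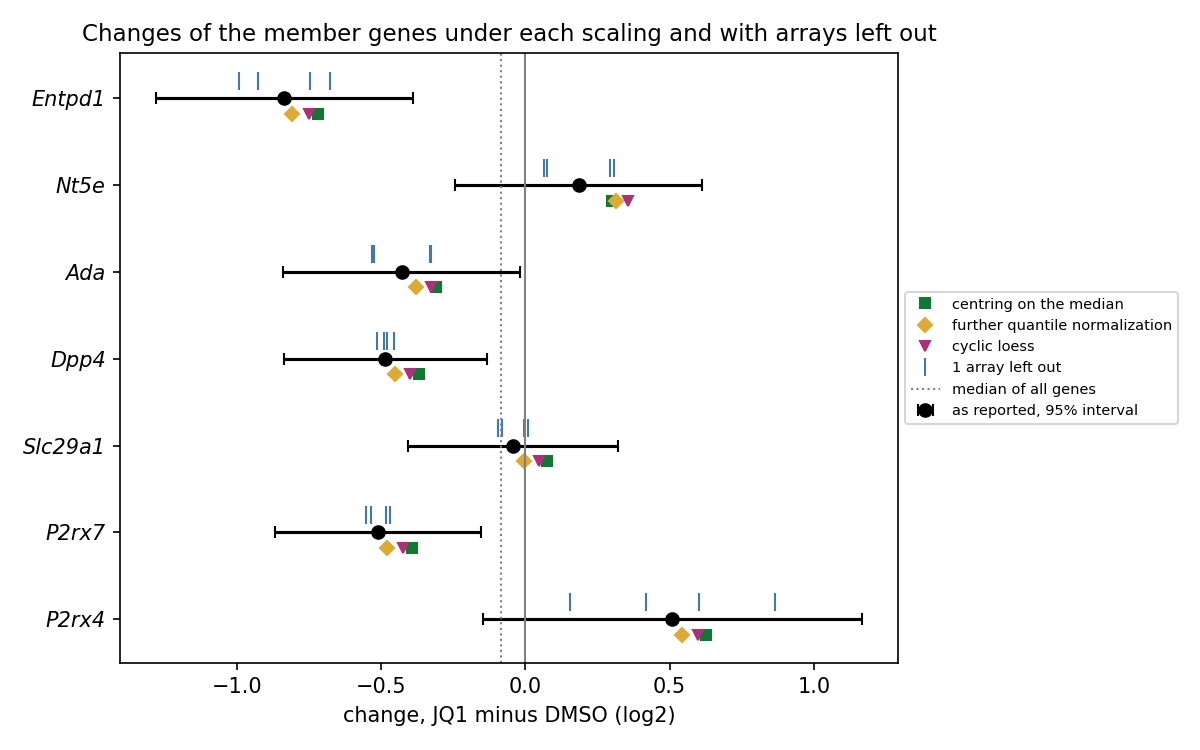
Change with JQ1 (horizontal axis, log2) of each of the 7 genes. Black points with bars are the reported changes with 95% intervals, coloured symbols the changes after 3 other scalings, blue ticks the changes with 1 array left out, the solid line 0 and the dotted line the median of all genes (-0.09). The intervals of Entpd1, Ada, Dpp4 and P2rx7 lie below 0, and the ticks of P2rx4 spread from 0.16 to 0.86.

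The signs of the 4 lower members and of Nt5e and P2rx4 held under the 3 other scalings and whichever array was left out. The number of members lower at an unadjusted limma p under 0.05 was less steady. It was 3 after each of the 3 scalings, where Ada no longer passed. With 1 array left out it was 2 without DMSO replicate 1 (Entpd1 and P2rx7), 1 without DMSO replicate 2 or JQ1 replicate 1 (Entpd1), and 2 without JQ1 replicate 2 (Entpd1 and P2rx7). Entpd1 was the member that stayed under that unadjusted threshold in all 12 alternatives in which it was tested, with changes from -0.99 to -0.68, and its adjusted p there ranged from 0.175 to 0.635.

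Genes of similar brightness give a scale for these changes. Entpd1, Dpp4 and P2rx7 had means over the 4 arrays between 5.58 and 5.90. Of the 3333 genes with a mean between 5 and 6, 5.64% were lower at an unadjusted limma p under 0.05 and 27.8% had both JQ1 arrays below both DMSO arrays. The median change became more negative with brightness, from 0.0014 for genes up to 4 to -0.20 for genes above 9. It was -0.16 for genes between 8 and 9, the range that holds Nt5e at 8.50.

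**Figure D3:**
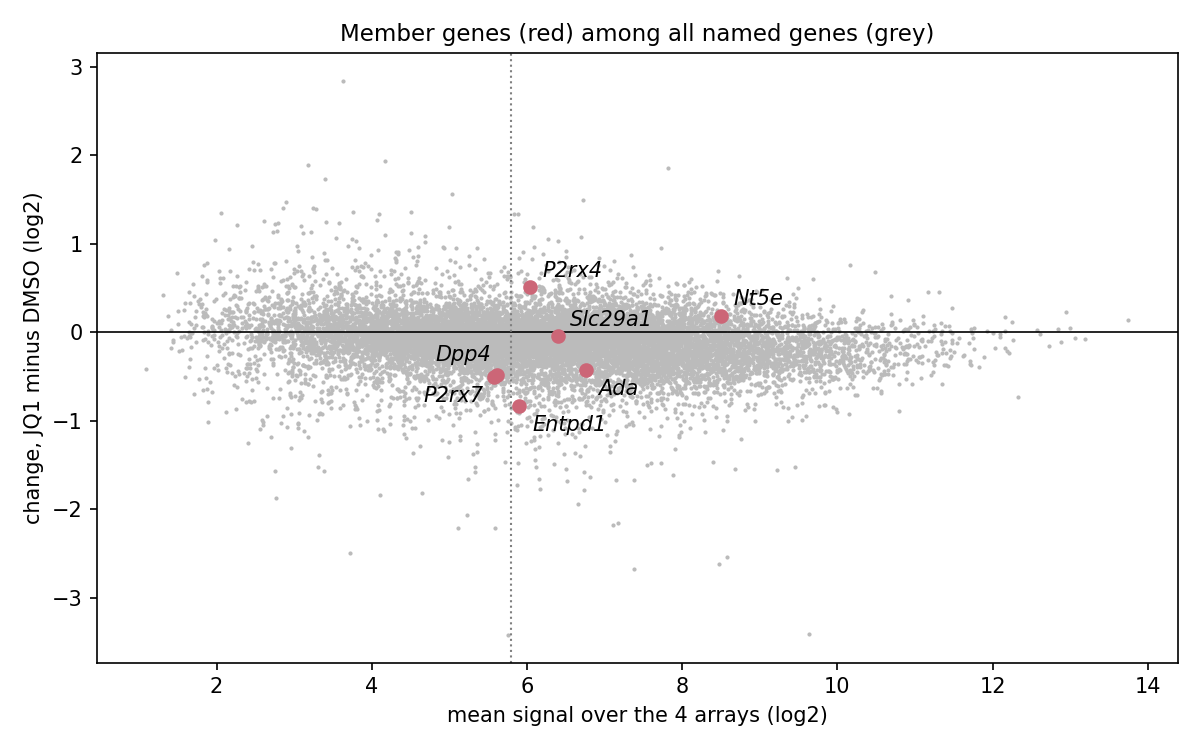
Change with JQ1 (vertical axis, log2) against the mean signal over the 4 arrays (horizontal axis, log2) for 14860 named genes (grey) and the 7 members (red). The dotted line is the background reference of 5.80. Entpd1 at -0.84 lies under the main cloud, Dpp4 and P2rx7 lie close together left of the dotted line, and Nt5e is the rightmost red point.

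The wider pathway was taken as 5 lists of enzymes, receptors, transporters and signalling genes, with 77 measured genes. In the limma fit 0 of the 77 passed over all genes. At an unadjusted p under 0.05, 6 were lower and 0 higher, which is 7.79% of the 77 beside 8.26% of all genes, so the lower share was near the background. Both JQ1 arrays lay below both DMSO arrays for 33 of the 77 and above for 6, where 31.4% of all genes lay below and 10.0% above. The median change was -0.17, beside -0.09 for all genes.

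Among 15 other enzymes that cut nucleotides outside the cell or in the secretory pathway, 2 were lower at an unadjusted p under 0.05, beside 8.26% of all genes, and the median change was -0.20. Entpd4, a Golgi relative of CD39, had a signal of 7.22 and 7.39 with DMSO and 6.90 and 6.93 with JQ1 (change -0.39, SE 0.15, limma adjusted p = 0.489). Cant1, a nucleotidase of the secretory pathway, was at 6.84 and 6.56 with DMSO and 5.35 and 6.11 with JQ1 (change -0.97, SE 0.28, limma adjusted p = 0.390), with JQ1 arrays well apart and a JQ1 mean of 5.73, under the background reference. Its change was -1.34 without JQ1 replicate 2 and -0.59 without JQ1 replicate 1. Acpp, an acid phosphatase that can make adenosine from AMP, had a change of -0.51 (SE 0.22), and Entpd5, an enzyme of the endoplasmic reticulum, 0.16 (SE 0.17). With 1 array left out, Acpp ranged from -0.76 to -0.26 and Entpd5 from 0.0050 to 0.31. The family of Entpd1 held genes on both sides of 0. Entpd6 was at -0.30, Entpd3 at -0.27, Entpd2 at -0.02, Entpd8 at 0.01 and Entpd7 at 0.08. Both JQ1 arrays lay below both DMSO arrays for Entpd3 and above them for Entpd7. Entpd3 and Entpd8 were under the background reference in both group means and Entpd6 in its JQ1 mean.

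Among 15 genes listed as other nucleotide and adenosine receptors, 0 were at an unadjusted limma p under 0.05. Of all genes, 8.26% were lower at that p and 1.72% higher. Both JQ1 arrays lay below both DMSO arrays for 3 of the 15 and above for 1, beside 31.4% and 10.0% of all genes. The median change was -0.05. Only 3 of the 15 had a group mean above the background reference. These were P2ry6, a UDP receptor, with a change of -0.44 (SE 0.17), Gpr17 with -0.31 (SE 0.18) and P2ry10 with -0.17 (SE 0.24). P2ry10 is a lymphocyte receptor that carries the P2Y name, and its ligand was not examined here. None of the 3 had both group means above the background reference. With 1 array left out they ranged from -0.61 to -0.26, from -0.45 to -0.17 and from -0.46 to 0.12. The P2X channels other than P2rx7 and P2rx4 were all dim, and their changes ran from -0.21 (P2rx3) to 0.12 (P2rx5).

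Of 16 enzymes that handle adenosine and other purines inside the cell, 13 had both group means above the background reference, and the median change was -0.28. Ak1, adenylate kinase, which interconverts AMP, ADP and ATP, had a signal of 7.07 and 7.24 with DMSO and 5.90 and 6.11 with JQ1. Its change of -1.15 (SE 0.16, 2.22-fold lower, limma adjusted p = 0.212) was the most negative of the 77, with no overlap between the groups, and it passed only where dim genes were left out of the fit (adjusted p = 0.0399 among genes above the median signal). Adk, the kinase that returns adenosine to AMP, was at -0.41 (SE 0.22), and Nt5m, a mitochondrial nucleotidase, at -0.60 (SE 0.29), with a range from -0.94 to -0.27 when 1 array was left out. Adal, a deaminase-like gene, had the highest change of the list, 0.56 (SE 0.24), with both JQ1 arrays above both DMSO arrays. The brightest 2, Hprt of purine salvage and the nucleotidase gene Nt5c, were at -0.23 (SE 0.14) and -0.04 (SE 0.16), the latter with a sign that turned after each of the 3 scalings.

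Of 10 genes of nucleoside transport and ATP release, 1 was lower at an unadjusted limma p under 0.05, a share near the 8.26% of all genes. Gja1, which encodes the channel protein connexin 43, had a signal of 6.60 and 6.65 with DMSO and 6.03 and 5.88 with JQ1 (change -0.66, SE 0.15, adjusted p = 0.322). Panx1, the pannexin channel through which T cells release ATP, was at 7.36 and 7.04 with DMSO and 7.46 and 7.55 with JQ1 (change 0.30, SE 0.17, limma adjusted p = 0.617). Slc29a3, a transporter of lysosomes, had a change of -0.13 (SE 0.16) and Calhm2 -0.52 (SE 0.27). With 1 array left out, Panx1 ranged from 0.14 to 0.46, Slc29a3 from -0.25 to -0.0013 and Calhm2 from -0.83 to -0.20.

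Among 21 genes of cyclic AMP signalling, the pathway that A2 receptors feed, both JQ1 arrays lay below both DMSO arrays for 15 and above for 1, with a median change of -0.22. The same held below for 31.4% of all genes, and for 38% of all genes with a mean signal between 7 and 8, the range of the list means. Single genes of the list ran more widely, from 4.85 (Adcy9) to 10.64 (Creb1). That share rose with brightness, from 23.9% between 4 and 5 to 54.8% above 9, so no single range matches the list. The regulatory subunits of protein kinase A, Prkar1a (-0.43, SE 0.15, limma adjusted p = 0.449) and Prkar2a (-0.59, SE 0.22, limma adjusted p = 0.482), were the 2 at an unadjusted p under 0.05. Both were lower, which is 9.52% of the 21 beside 8.26% of all genes, so this share was near the background. With 1 array left out Prkar2a ranged from -0.83 to -0.36. Creb1, the cyclic AMP response factor, was at -0.08 (SE 0.16), with a sign that turned after each of the 3 scalings. The list means on the 4 arrays ran from 7.18 to 7.46, and genes with a mean signal between 7 and 8 had a median change of -0.12.

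**Figure D4:**
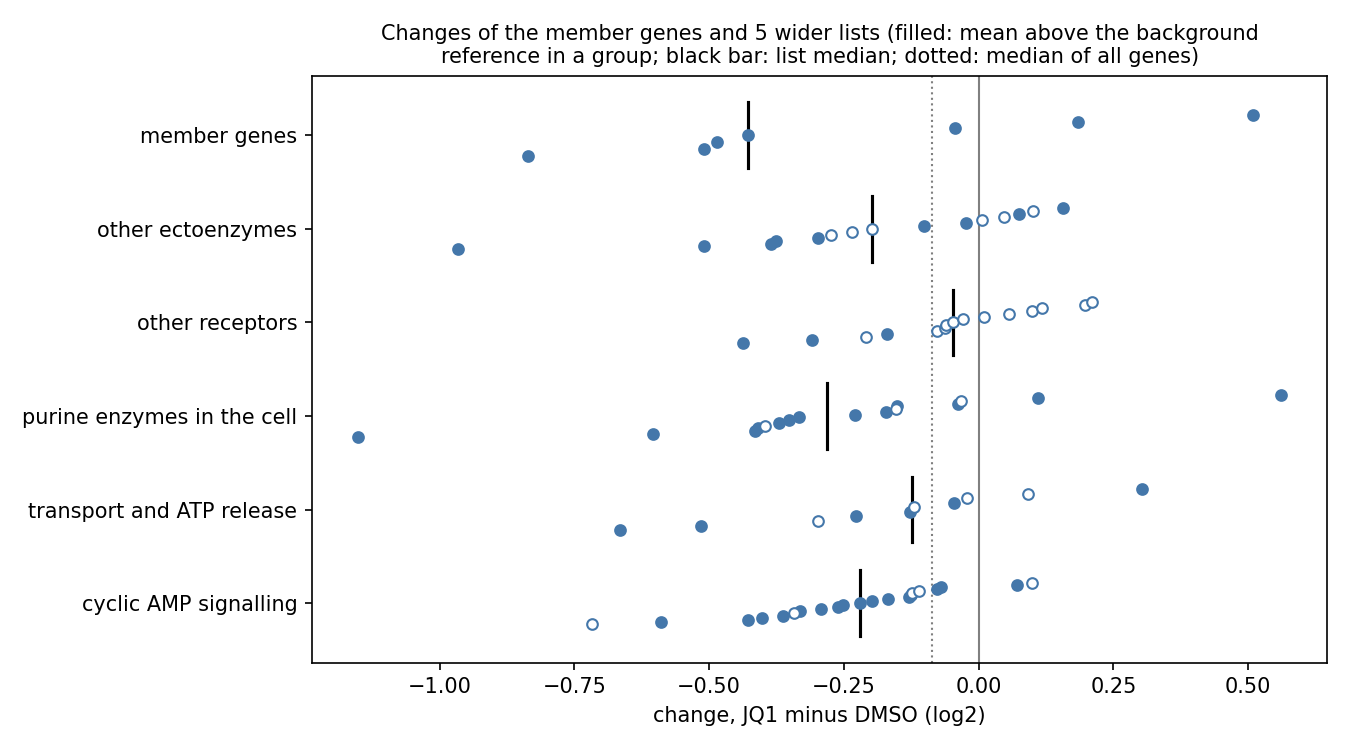
Change with JQ1 (horizontal axis, log2) of each measured gene of the member list and of the 5 wider lists. Filled points had a mean above the background reference in at least 1 group, open points in none, black bars are list medians and the dotted line is the median of all genes (-0.09). The member list spans -0.84 to 0.51, and Ak1 at -1.15 is the leftmost point.

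For each member at an unadjusted p under 0.05, the 3 genes with the most similar profile over the 4 arrays were found among 8146 genes above the background reference, as the root mean square difference of the centred log2 values. For Entpd1 these were Arfgap2 (0.030), a regulator of Golgi coats, Stx18 (0.037), a membrane fusion protein of the endoplasmic reticulum, and Serpinf1 (0.050), a secreted serpin. For Ada they were the signalling adaptor Dok2 (0.014), Cnpy4 (0.015) and Mgst3 (0.020). For Dpp4 they were the nuclear pore gene Nup62 (0.0096), Cd2bp2 (0.014) and Traf3ip2 (0.015), the adaptor of the IL-17 receptor. For P2rx7 they were Mxd1 (0.010), a partner of MAX, Ccdc181 (0.016) and the RNA-editing enzyme Adar (0.017). With 4 arrays in 2 groups this likeness is a description only.

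Other cells could carry several of the members, and their markers are given as levels, with counts to be read beside the 31.4% of all genes that had both JQ1 arrays below both DMSO arrays. Fewer cells of a type and less RNA per cell cannot be told apart in these bulk samples. For the regulatory T cell list, 4 of 5 measured genes (Il2ra, Tnfrsf18, Itgae and Nrp1) were lower on both JQ1 arrays. The list means were 7.92 and 7.97 with DMSO and 7.61 and 7.70 with JQ1. Nrp1 was under the background reference in both group means and Itgae in its JQ1 mean. Foxp3, Ctla4 and Lrrc32 of this list had no row. For the naive T cell list 1 of 4 was lower and 2 were higher, with means of 8.53 and 8.84 with DMSO and 8.66 and 8.71 with JQ1. For CD8 T cells 2 of 3 were lower, with list means of 6.13 to 6.17 with DMSO and 5.53 to 5.85 with JQ1. For B cells 3 of 5 were lower, with 5.20 to 5.37 and 4.99 to 5.24. Only 1 gene of each of these 2 lists, Cd8b1 and Pax5, had both group means above the background reference. Cd8a, Cd79a and Cd79b had JQ1 means under it, and Eomes, Ms4a1 and Cd22 had both group means under it. For natural killer cells 1 of 4, Klrd1, was lower, with list means of 4.80 to 4.89 and 4.24 to 4.43. Klrd1, with group means of 6.74 and 5.01, moved those list means. Ncr1, Klre1 and Fcgr3 overlapped between the groups and had group means under the background reference. For myeloid cells 0 of 6 were lower on both JQ1 arrays, with list means of 5.09 to 5.17 and 5.22 to 5.43. S100a8, the myeloid gene with the largest change (1.19, on arrays at 4.66 and 6.30 with DMSO and 7.16 and 6.17 with JQ1), moved that mean, while the median change of the list was 0.03. For red cells the 1 measured gene, Alas2, was dim throughout, at 5.13 to 5.34. The part of these cells in the lower Entpd1, Ada, Dpp4 and P2rx7 signals was not tested.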

How the data were processed

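The 4 arrays, 2 with JQ1 and 2 with DMSO, were grouped by their sample titles. The authors deposited 1 log2 value per row and array, made by RMA in Affymetrix Expression Console per the submitters' processing notes. RMA subtracts a modelled background, brings the arrays to 1 distribution of probe values and combines probes into rows. No version or setting is recorded, and a human build is named for these mouse samples, so rows carry no coordinates here. Of 23332 rows the platform annotation gave 1 gene for 14996, several for 1019 and none for 7317, and 14941 Entrez identifiers matched RefSeq (GRCm38.p6), used for symbols. The brightest row was kept for the 135 genes with several, leaving 14860 genes without a filter on dim ones.

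The test was limma 3.58.1 under R 4.3.3 (two-sided lmFit and eBayes fit with 2 residual and 3.43 prior degrees of freedom). P-values were adjusted by Benjamini and Hochberg's method over the 14860 genes, and 0.05 was the threshold. SEs are moderated, intervals are at 95%, and an SD is over n = 2. The fit was also run on simulated data with added changes larger than any of the members. That run cannot show how well changes of the members' size are found. The members, lists and background reference were chosen with earlier results of these data known. The text names all members and, from each wider list, the genes at an unadjusted p under 0.05, the 2 brightest, and the 2 with the largest change among those above the background reference in a group. For each member at an unadjusted p under 0.05, it also names the 3 genes nearest in profile. Entpd2, Entpd3, Entpd6, Entpd7, Entpd8, P2rx3, P2rx5, Adk, Adal and Adcy9 were named after their values were seen. Alternatives were a variance trend, a robust prior, 3 scalings, 2 filters on dim genes, the mean of all rows, a replicate block and each array left out. Promoters are RefSeq sequences, and 7 of 7 measured members matched by symbol. Plots used matplotlib 3.10.9 with Python 3.11.15.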

Additional observations from a re-analysis of the deposited data

How the results depend on the processing

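No member passed the threshold over all genes under any of the 13 alternatives, and the signs of Entpd1, Nt5e, Ada, Dpp4, P2rx7 and P2rx4 held in all in which they were tested (Entpd1, Dpp4 and P2rx7 fell outside the genes above the median signal). The change of Slc29a1 turned to 0.0742 after centring on the median and 0.0489 after cyclic loess, and with 1 array left out it ranged from -0.0954 to 0.0091. Leaving out 1 array gave -0.99 to -0.68 for Entpd1, 0.06 to 0.31 for Nt5e, -0.53 to -0.33 for Ada, -0.51 to -0.46 for Dpp4, -0.55 to -0.47 for P2rx7 and 0.16 to 0.86 for P2rx4. Nt5c turned to 0.106 after a further quantile normalization, 0.0794 after centring and 0.154 after cyclic loess, and Creb1 to 0.0892, 0.0398 and 0.128. With 1 array left out, P2ry10 ranged from -0.458 to 0.118, Nt5c from -0.156 to 0.0797 and Creb1 from -0.214 to 0.0586. Ak1, at -1.15, passed among genes above the median signal. The median change of all genes moved from -0.09 to 0.03 after centring, 0.0035 after cyclic loess and -0.05 after quantile normalization, and the causes of these shifts were not tested.

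Genes lower past the threshold numbered 1 as reported, 3 with a variance trend, 50 among genes above the median signal, 9 above the 25th percentile, 0 with the replicate block and 0 with any array left out (as higher, 0 throughout). At an unadjusted p under 0.05 the 1228 lower and 255 higher genes became 679 and 572 after centring, 805 and 545 after cyclic loess, and 145 higher above the median signal, with 689 to 1244 lower when 1 array was left out. Members lower at that p numbered 1 above the median signal, where 3 of the 4 were not tested, and 1 to 2 with 1 array left out. Members higher numbered 1 (Nt5e) after cyclic loess and 0 to 1 (P2rx4) with 1 array left out. Of the other pathway genes, 6 were lower and 0 higher as reported. These became 3 and 2 after centring and after cyclic loess, 10 and 1 above the median signal (with 1, Ak1, past the threshold), and 3 to 8 and 0 to 1 with 1 array left out. There was also 1 higher after quantile normalization, above the 25th percentile and with the replicate block.

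The titles number the samples 1 and 2 in both groups, but no label ties equal numbers to a shared mouse or day. Deviations of equally numbered arrays from their group means correlated at 0.0967 over genes. With the replicate block, members lower at an unadjusted p under 0.05 numbered 3 (Entpd1, Dpp4 and P2rx7).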
